A study of Mus musculus with 12 samples.

Results

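Pax7 is a transcription factor that binds DNA through a paired domain and a homeodomain, and in the pituitary it sets apart melanotropes, the cells of the intermediate lobe that make alpha-MSH, from corticotropes, the cells of the anterior lobe that make ACTH. Both cell types express Pomc, the common precursor of these hormones, and Tbx19, the gene of the T-box factor Tpit, but only melanotropes cleave ACTH further with the convertase Pcsk2. Alternative splicing adds to or leaves out of its paired domain a single glutamine (Q) and the dipeptide glycine-leucine (GL). The isoform that lacks both, Q-GL-, has the shortest paired domain, and the isoform that holds both, Q+GL+, has the longest. The libraries of these isoforms were set against each other here, 4 of the 12 libraries in the series, 2 of each isoform.

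AtT-20 cells, a mouse pituitary tumour line used as a corticotrope model, carried the Pax7 isoforms as tagged proteins from a retroviral vector with a CMV promoter. Each group is a pool of many drug-resistant colonies rather than a single clone, and all groups share the parent line, the vector and the selection. Each isoform was carried by its own pool, so isoform and pool cannot be told apart. The labels and methods give no age, added agent or time course, and the methods call the replicates biological, with an RNA extraction for each, but whether each replicate had its own infection is not stated, and the p-values rest on the differences among these libraries alone. The Pax7 Q-GL+ libraries, with GL alone, differ from each of the compared isoforms by 1 of the inserts. Libraries with Pax3, the paralog of Pax7, and with Pax7-465, a C-terminal deletion of Pax7, served to estimate the spread, and those labelled NoTag were left out of the main fit. Levels are in FPKM, a unit that corrects fragment numbers for library size and transcript length, so that different genes can be compared per length.

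The inserts are small beside the domain that holds them. Pax7 lies on the minus strand of chr4:139737062-139833528 (GRCm38). In the GENCODE M21 annotation the transcripts Pax7-201, with Q and without GL, and Pax7-202, with both, encode 503 and 505 codons and show where the inserts fall. The stretch around them is given from codon 100 to the codons that match beyond the insert, 5′ to 3′, with the inserted codons in capitals.
Pax7-201 (Q+GL-), codons 100 to 158: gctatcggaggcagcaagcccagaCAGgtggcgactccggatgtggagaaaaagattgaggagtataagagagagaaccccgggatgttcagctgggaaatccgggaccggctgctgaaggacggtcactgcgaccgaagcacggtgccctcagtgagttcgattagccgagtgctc
Pax7-202 (Q+GL+), codons 100 to 160: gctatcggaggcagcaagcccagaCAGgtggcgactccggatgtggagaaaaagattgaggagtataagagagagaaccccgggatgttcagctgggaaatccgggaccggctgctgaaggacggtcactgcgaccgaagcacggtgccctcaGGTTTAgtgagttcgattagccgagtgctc
The Q codon, CAG, is codon 108 and the first of exon 3, at chr4:139829624-139829626. The GL codons, GGTTTA, are codons 151 and 152, and they join the last base of exon 3 to the start of exon 4. The compared Q-GL- isoform lacks all 9 of these inserted bases, and its own transcript was not among the sequences used here.

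Of 16385 genes in the table, the 12047 with at least 1 FPKM in at least 2 of the 4 libraries were tested on the log2(FPKM + 1) scale, on which fold changes of low genes are understated. Summed FPKM was 431988 to 468667 in the 4 libraries, and the read depth is unknown. Pearson's r across genes was 0.995 within Q-GL-, 0.992 within Q+GL+ and 0.989 to 0.991 between them. The introduced Pax7 was at 95.2 and 93.9 FPKM in the Q-GL- libraries and 99.9 and 102 FPKM in the Q+GL+ libraries, a log2 difference of −0.10 ± 0.07 (SE) at an adjusted p of 0.62, with a 95% interval of −0.25 to 0.06. The level of the introduced transcript did not pass the test between the isoforms. Of the corticotrope markers, Tbx19 was at 117 and 116 FPKM in the Q-GL- libraries and 121 and 133 FPKM in the Q+GL+ libraries, Pcsk1, the convertase that makes ACTH, at 385 and 391 FPKM against 288 and 309.9 FPKM, and Neurod1 at 11.5 and 11.5 FPKM against 13.8 and 13.2 FPKM in the same order. Crhr1, the receptor for the releasing hormone CRH, was below 1 FPKM in all 4.

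Of the 12047 genes, 224 (1.86%) passed an adjusted p of 0.05 between Q-GL- and Q+GL+ cells in the limma fit. Q-GL- cells had higher levels of 190 (1.58%) and lower levels of 34 (0.282%), so that 84.8% of the calls were higher with the shortest isoform. Under quantile normalization 275 were higher and 121 lower, a share of 69.4%. Changes of at least 1 on the log2 scale were found for 30 genes higher and 1 lower. The median log2 fold change was 0.64 over the genes called higher, with a range from 0.36 to 2.78, and −0.52 over those called lower, against 0.02 over all genes tested. In bulk RNA a change in the number of cells that express a gene and a change in the RNA per cell cannot be told apart.

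The libraries of the 2 groups did not overlap for any of the 224 genes, and this held for 48.9% of all genes tested, 29.6% with Q-GL- higher and 19.3% with it lower. At an unadjusted p of 0.05, 1624 genes passed, 1066 higher and 558 lower. Protein-coding genes made up 96.8% of the higher calls, 79.4% of the lower calls and 92.3% of the genes tested. The median level was 11.4 FPKM for the genes called higher, 6.44 FPKM for those called lower and 12.7 FPKM for all tested. The filter was passed only through the Q-GL- libraries by 86 genes, 20 of them called, and only through the Q+GL+ libraries by 57, 2 of them called. At the limit of the filter, the second-highest of the 4 values was 1.003 FPKM for Rab25, just inside, and 0.9999 FPKM for Rasd1, just outside. Leaving out replicate 1 or replicate 2 of Q+GL+ lowered the count to 72 and 115, leaving out those of Q-GL- lowered it to 79 and 59, and 51 genes, 49 higher and 2 lower, were called without each of the 4 in turn.

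**Figure D1:**
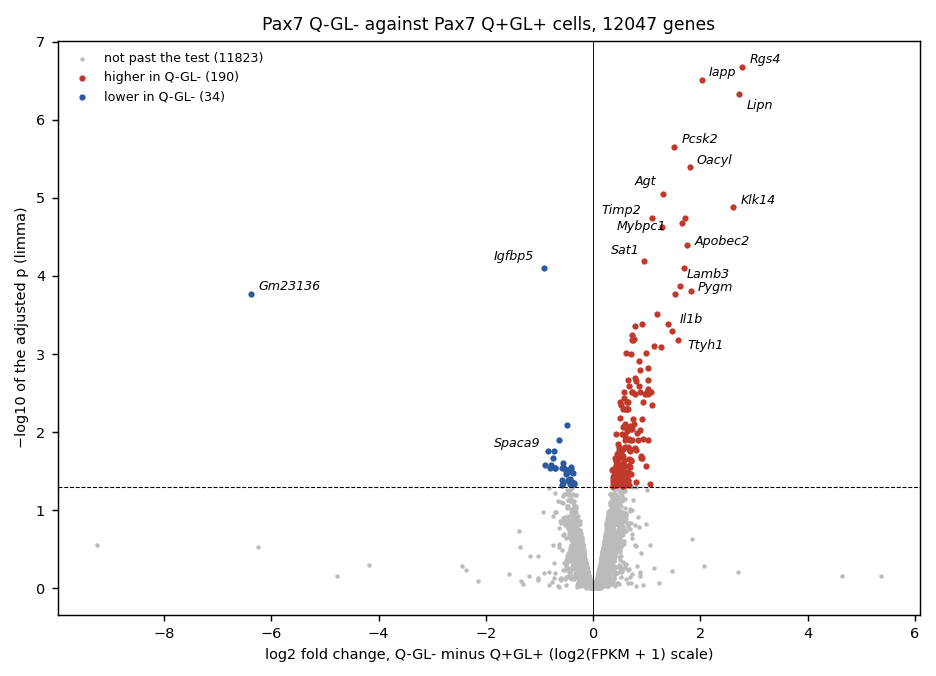
Each point is 1 of the 12047 genes tested, with the log2 fold change of Q-GL- minus Q+GL+ cells on the horizontal axis (log2(FPKM + 1) scale) and −log10 of the limma adjusted p on the vertical axis, and the dashed line marks an adjusted p of 0.05. The genes higher in Q-GL- cells reach to 2.78 for Rgs4, while those lower, apart from Gm23136, lie no further out than −0.91 for Igfbp5, and the places of Gm23136 and Il1b, listed at 0 in the libraries of 1 group, depend on the value of 1 added before the logarithm.

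Of the genes called higher, Rgs4 had the largest difference. Rgs4 encodes a GTPase-activating protein that shortens signalling by G proteins. Rgs4 (chr1:169741477-169747642, minus strand) was at 19.9 and 20.5 FPKM in the Q-GL- libraries and 2.15 and 2.03 FPKM in the Q+GL+ libraries, a log2 difference of 2.78 ± 0.11 (SE) at an adjusted p of 2.1e-07. Both Q-GL- libraries lay far above both Q+GL+ libraries, and with any 1 library left out the log2 fold change was 2.75 to 2.81. Lipn, a gene of the acid lipase family, was at 9.05 and 8.39 FPKM in the Q-GL- libraries and 0.434 and 0.503 FPKM in the Q+GL+ libraries, a log2 difference of 2.73 ± 0.12 (SE) at an adjusted p of 4.7e-07. Klk14, a kallikrein-related serine peptidase, was at 9.37 and 9.94 FPKM against 0.601 and 0.905 FPKM in the same order, a log2 difference of 2.61 ± 0.17 (SE) at an adjusted p of 1.3e-05. These 3 genes were low with Q+GL+, between 0.434 and 2.15 FPKM, and at least 8.39 FPKM with Q-GL-.

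Iapp, which encodes amylin, the peptide hormone that pancreatic beta cells release with insulin, was at 32.4 and 30.5 FPKM in the Q-GL- libraries and 6.69 and 7.31 FPKM in the Q+GL+ libraries, a log2 difference of 2.02 ± 0.09 (SE) at an adjusted p of 3.1e-07. Both Q-GL- libraries lay well above both Q+GL+ libraries. Pygm, the muscle glycogen phosphorylase, was at 6.41 and 7.95 FPKM against 1.06 and 1.58 FPKM with a log2 difference of 1.82 ± 0.17 (SE) at an adjusted p of 1.5e-04. Apobec2, a cytidine deaminase family member of muscle, was at 10.7 and 10.6 FPKM against 2.03 and 2.98 FPKM with a log2 difference of 1.75 ± 0.14 (SE) at an adjusted p of 4.0e-05. For Apobec2 the Q-GL- libraries differed by far less than the Q+GL+ libraries did.

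Among the other genes with the largest changes were Cabp7, a calcium-binding protein of neurons, at a log2 difference of 1.68 (adjusted p = 7.8e-05), Lamb3, a laminin chain of basement membranes, at 1.62 (adjusted p = 1.3e-04), and Kif21b, a kinesin motor, at 1.52 (adjusted p = 1.7e-04). Lipc, the hepatic lipase, was at 2.75 and 2.22 FPKM against 0.243 and 0.396 FPKM, a log2 difference of 1.40 ± 0.14 (SE) at an adjusted p of 4.1e-04. Il1b, the cytokine interleukin-1 beta, was at 2.11 and 1.47 FPKM in the Q-GL- libraries and listed at 0 in both Q+GL+ libraries, which gave an adjusted p of 5.0e-04 and allows no fold change. With a pseudocount of 0.1 in place of 1, the differences of the low genes Cabp7, Kif21b and Lipc were 2.76, 2.50 and 2.64. Lipn, Klk14, Cabp7, Kif21b, Lipc and Il1b were below 1 FPKM in both Q+GL+ libraries. They passed the filter only through the Q-GL- libraries, where they were high, so their calls are no independent support. All 15 genes of this group kept their call under every alternative in which they were tested, and with each library left out.

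**Figure D2:**
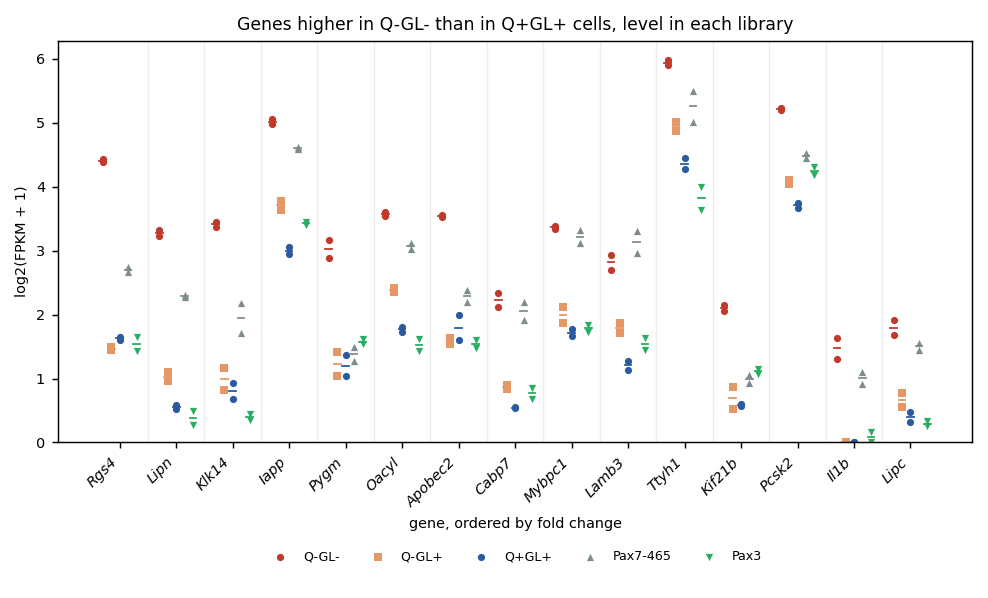
Level of each of the 15 named genes with the largest higher change, as log2(FPKM + 1) on the vertical axis, in single libraries of Q-GL-, Q-GL+, Q+GL+, Pax7-465 and Pax3 cells (points, 2 per group) with the group mean as a short line. The Q-GL- points lie above the Q+GL+ points for all 15 genes, which were named only if the groups did not overlap. The values run from 1.47 and 2.11 FPKM against 0 for Il1b to 58.7 and 62.3 FPKM against 18.3 and 20.8 FPKM for Ttyh1.

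Melanotrope genes were the group with most calls. Of 13 listed genes 11 were tested, and 8 rose in Q-GL- cells and none fell, while 1.58% of all genes tested were called higher. The median log2 fold change of the list was 0.59 against 0.02 for all genes tested. The list was drawn up with earlier results of these data known, so its direction is no independent evidence. Pcsk2 (chr2:143546156-143816285, plus strand), the convertase that trims ACTH towards alpha-MSH, was at 35.8 and 36.6 FPKM in the Q-GL- libraries and 11.7 and 12.5 FPKM in the Q+GL+ libraries, a log2 difference of 1.51 ± 0.08 (SE) at an adjusted p of 2.2e-06. Oacyl, an acyltransferase-like membrane protein, was at 11.1 and 10.6 FPKM in the Q-GL- libraries and 2.52 and 2.31 FPKM in the Q+GL+ libraries, a log2 difference of 1.80 ± 0.10 (SE) at an adjusted p of 4.1e-06. The libraries of the 2 isoforms were well separated for both genes.

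Mybpc1, best known as the slow-muscle myosin-binding protein C, was at 9.11 and 9.49 FPKM against 2.16 and 2.41 FPKM in Q-GL- and Q+GL+ cells, a log2 difference of 1.65 ± 0.12 (SE) at an adjusted p of 2.1e-05. Ttyh1, a membrane protein of the tweety family, was at 58.7 and 62.3 FPKM against 18.3 and 20.8 FPKM with a log2 difference of 1.58 ± 0.16 (SE) at an adjusted p of 6.6e-04. Timp2, an inhibitor of matrix metalloproteinases, was at 65.8 and 63.1 FPKM against 29.2 and 30.3 FPKM with a log2 difference of 1.09 ± 0.08 (SE) at an adjusted p of 1.8e-05. These genes rose by more than 1 on the log2 scale, while Ahsg, the secreted glycoprotein fetuin-A, rose by 0.59 (adjusted p = 0.012), Megf11, a transmembrane protein with EGF repeats, by 0.52 (adjusted p = 0.018) and Eln, the elastin gene, by 0.51 (adjusted p = 0.02). Not past the test were Kit at a log2 difference of 0.26 (adjusted p = 0.32), Mest at 0.07 (adjusted p = 0.78) and Pomc. No values were found under the names Drd2 and Esr2. The calls of Pcsk2, Oacyl, Mybpc1, Ttyh1 and Timp2 held with each library left out. That of Ahsg was lost in all 4 cases, those of Megf11 and Eln without Q+GL+ replicate 1, Q+GL+ replicate 2 or Q-GL- replicate 2, and the adjusted p of the 3 genes was 0.02 to 0.19 over the 4 cases.

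Corticotrope genes gave no call among 9 tested, with a median of −0.03, and 6 of the 9 had an unadjusted p under 0.05. Pomc was at 8622 and 9158 FPKM in the Q-GL- libraries and 6146 and 6756 FPKM in the Q+GL+ libraries, the highest of the genes in the lists on cell identity and the secretory pathway. Both Q-GL- libraries exceeded both Q+GL+ libraries, but with a log2 difference of 0.46 ± 0.14 (SE) at an adjusted p of 0.15 the difference did not pass the test, and its 95% interval was 0.15 to 0.77. Quantile normalization lowered the difference in Pomc to 0.08, outside that interval, whereas in the fits of only the 4 compared libraries, with and without a replicate block, it passed at an adjusted p of 0.015 and 0.019. Pcsk1 had a log2 difference of 0.37 (adjusted p = 0.1), Lifr, the LIF receptor, 0.27 (adjusted p = 0.26), and Nr3c1, the glucocorticoid receptor, −0.24 (adjusted p = 0.24). Of 22 tested pituitary transcription factors none passed, with a median of −0.11 and a log2 difference of 0.40 (adjusted p = 0.069) for Stat3, 0.30 (adjusted p = 0.11) for Etv1 and −0.52 (adjusted p = 0.13) for Gata2, and 7 of the 22 had an unadjusted p under 0.05.

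Genes that mark other cells were also counted. Of 13 listed genes of other pituitary lineages 4 were measured and none reached the filter, with Lhb, of luteinizing hormone, and Ghrhr, the receptor for growth hormone releasing hormone, at 0 in all 4 libraries and a summed level of 0.986 to 0.991 FPKM with Q-GL- and 0.908 to 1.16 FPKM with Q+GL+. Of 11 genes of blood and endothelium 3 were measured, none reached the filter, and their summed level was 0.317 to 0.355 FPKM with Q-GL- and 0.389 to 0.729 FPKM with Q+GL+. Of 12 genes of pituitary stem and glial cells 3 were tested and none passed, with summed levels of 103 to 109.5 FPKM with Q-GL- and 81.2 to 108 FPKM with Q+GL+. Of 18 skeletal muscle genes 7 were measured and 3 were tested. Mybpc1 and Pygm rose, while 1.58% of all genes tested were called higher. Myh3, embryonic myosin, was at 3.94 and 4.14 FPKM against 4.16 and 4.23 FPKM. Summed over the 7 genes, the level was 20.5 to 22.4 FPKM with Q-GL- and 7.67 to 8.73 FPKM with Q+GL+. The muscle genes Acta1, of skeletal actin, Tnnt1 and Chrna1 were listed at 0 in all 4 libraries.

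Enzymes and cargo of the regulated secretory pathway rose in part, beside 1.58% called higher over all genes tested. Of 17 tested prohormone processing enzymes 2 rose and none fell, with a median of 0.17, and these were Pcsk2 and Pam, the enzyme that amidates peptide C termini. Pam was at 116 and 123 FPKM in the Q-GL- libraries and 76.9 and 80.9 FPKM in the Q+GL+ libraries, a log2 difference of 0.60 ± 0.09 (SE) at an adjusted p of 0.005. Scg5, the chaperone of Pcsk2 known as 7B2, was at 152 and 153 FPKM against 107 and 113 FPKM and just missed the threshold at a log2 difference of 0.47 (adjusted p = 0.052). The Pam call was lost without Q+GL+ replicate 1 or Q-GL- replicate 2, with adjusted p values of 0.033 to 0.087 over the 4 cases.

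Of 17 granins and granule membrane proteins 4 rose and none fell, with a median of 0.19 and 15 of 17 above 0. Over all genes tested 1.58% were called higher, and 6745 of 12047 lay above 0. A lean above 0 was also found without calls, with 44 of 52 genes of the respiratory chain and ATP synthase above 0 and 8 below. Scg2, secretogranin II, was at 107 and 106 FPKM in the Q-GL- libraries and 65.8 and 71.3 FPKM in the Q+GL+ libraries, a log2 difference of 0.63 ± 0.09 (SE) at an adjusted p of 0.0051. Chgb, chromogranin B, was at 694 and 759 FPKM against 506 and 543 FPKM with a log2 difference of 0.47 ± 0.10 (SE) at an adjusted p of 0.045. The other 2 were Sv2c, a synaptic vesicle glycoprotein, at a log2 difference of 0.69 (adjusted p = 0.0083), and Ptprn, the islet autoantigen of dense-core granule membranes, at 0.43 (adjusted p = 0.011). Chgb and Ptprn lost their call with any library left out, Scg2 without Q+GL+ replicate 1, Q-GL- replicate 1 or Q-GL- replicate 2, and Sv2c without Q+GL+ replicate 2, Q-GL- replicate 1 or Q-GL- replicate 2. The adjusted p over these fits was 0.023 to 0.32.

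Of 43 exocytosis proteins and 18 subunits of the vacuolar ATPase, the proton pump of granules and lysosomes, none passed, with medians of 0.02 and 0.04, and 9 and 2 of them had an unadjusted p under 0.05. Without Q+GL+ replicate 2, 1 exocytosis gene was called. Of the 8 tested peptide hormone genes only Iapp was called, and the median of these 8 genes was 0.27, with 1 further gene called, as lower, without Q+GL+ replicate 1. Of 29 genes of ER folding and the unfolded protein response 1 fell, Edem1, which hands misfolded glycoproteins over to degradation. Edem1 was at 9.399 and 11.04 FPKM against 15.4 and 15.2 FPKM with a log2 difference of −0.54 (adjusted p = 0.029). Among all genes tested, 1.58% were called higher and 0.282% lower. The Edem1 call was lost with any library left out, with an adjusted p of 0.07 to 0.25.

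Signalling genes gave isolated calls, beside 1.58% called higher over all genes tested. Rgs4 was the only one of 13 tested G-protein signalling regulators to pass, and the median of the group was −0.03, with Rgs7 at a log2 difference of 0.50 (adjusted p = 0.073) and Rgs10 at −0.39 (adjusted p = 0.22). Of 30 genes of cyclic AMP signalling 2 rose, Pde4d, a phosphodiesterase that degrades cyclic AMP, at a log2 difference of 0.66 (adjusted p = 0.012) and Prkar2b, a regulatory subunit of protein kinase A, at 0.42 (adjusted p = 0.029). Among voltage-gated and potassium channel genes, Abcc8, the sulfonylurea receptor of ATP-sensitive potassium channels, was at 11.2 and 10.1 FPKM in the Q-GL- libraries and 5.74 and 5.805 FPKM in the Q+GL+ libraries, a log2 difference of 0.78 ± 0.10 (SE) at an adjusted p of 0.002. Abcc8 kept its call with each library left out, Prkar2b lost its call in all 4 cases, and Pde4d lost it in each case but that without Q+GL+ replicate 2, with adjusted p values of 0.038 to 0.26 for the last 2 genes.

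Extracellular genes held some of the calls, and Eln and Timp2 among them were also counted with the melanotrope genes. Of 14 tested matrix proteins 5 rose and none fell, with a median of 0.14, while 1.58% of all genes tested were called higher. The 5 were Lamb3, Hmcn2, which encodes hemicentin 2, Lama4, a laminin alpha chain, Eln and Col18a1, the source of endostatin. Lamb3 was at 5.51 and 6.67 FPKM in the Q-GL- libraries and 1.19 and 1.43 FPKM in the Q+GL+ libraries. Hmcn2 was at 6.37 and 6.27 FPKM against 3.53 and 3.17 FPKM with a log2 difference of 0.75 (adjusted p = 0.0078), Lama4 at 5.24 and 4.96 FPKM against 2.98 and 3.31 FPKM with 0.56 (adjusted p = 0.02) and Col18a1 at 10.1 and 10.4 FPKM against 7.25 and 7.44 FPKM with 0.43 (adjusted p = 0.043). Of 25 proteases and protease inhibitors Klk14, Timp2 and Serpine2, an inhibitor of thrombin and plasminogen activators, rose and none fell, and Serpine2 was at 40.3 and 45.9 FPKM in the Q-GL- libraries and 24.8 and 25.2 FPKM in the Q+GL+ libraries, a log2 difference of 0.76 ± 0.08 (SE) at an adjusted p of 6.4e-04. The calls of Lamb3, Klk14, Timp2 and Serpine2 held with each library left out, 1 further protease gene was called without Q+GL+ replicate 2, and matrix calls numbered 2 without Q+GL+ replicate 1 or Q-GL- replicate 1 and 1 in the other cases.

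**Figure D3:**
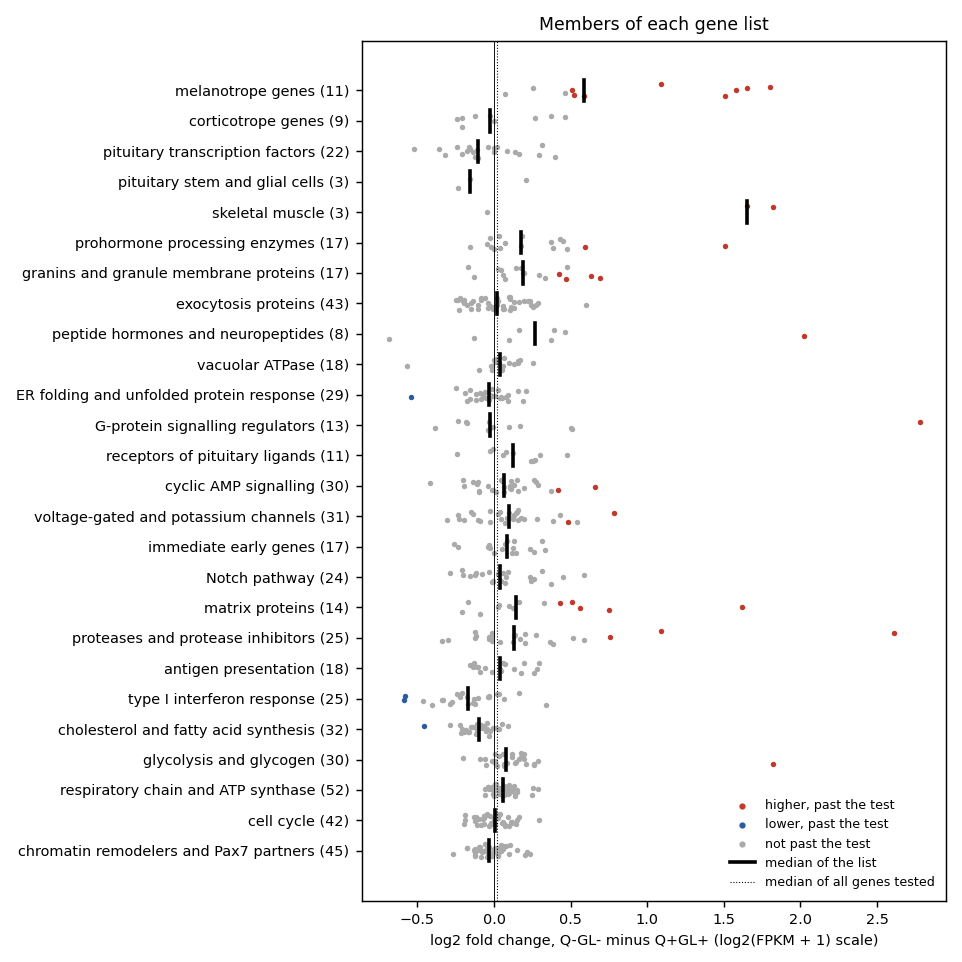
Log2 fold change of Q-GL- minus Q+GL+ cells (horizontal axis, log2(FPKM + 1) scale) for the tested members of 26 gene lists, with the number tested in parentheses, red points past the test and higher, blue points past the test and lower, and grey points not past it. The bar of the melanotrope genes, their median, stands at 0.59 with 8 of 11 members past the test, while most medians of larger lists lie near the dotted line at 0.02, the median of all genes tested.

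Among abundant genes, whose mean reached 50 FPKM in Q-GL- cells, those with the smallest adjusted p among the higher calls were Timp2, Sat1, Ttyh1, Ss18, Pam, Scg2, Aldh1l2, Glrb, Ahsg and Megf11. Sat1, the acetyltransferase that starts the breakdown of polyamines, was at 55.01 and 53.4 FPKM in the Q-GL- libraries and 28.4 and 27.02 FPKM in the Q+GL+ libraries, a log2 difference of 0.94 ± 0.08 (SE) at an adjusted p of 6.4e-05. Ss18, a subunit of the BAF chromatin remodelling complex, was at 77.02 and 70.1 FPKM against 49.1 and 50.3 FPKM with a log2 difference of 0.55 (adjusted p = 0.005). Glrb, the beta subunit of the glycine receptor, was at 57.4 and 58.02 FPKM against 32.5 and 39.2 FPKM with a log2 difference of 0.68 (adjusted p = 0.0086). For Glrb the Q+GL+ libraries stood apart from each other more than the Q-GL- libraries did. Aldh1l2, a folate enzyme of mitochondria, was at 78.1 and 83.8 FPKM against 56.7 and 57.02 FPKM with a log2 difference of 0.50 (adjusted p = 0.0066). The calls of Timp2 and Sat1 held with each library left out, whereas the call was lost for Ss18 without Q+GL+ replicate 1 or Q-GL- replicate 1, for Glrb without any but Q+GL+ replicate 2 and for Aldh1l2 without any but Q-GL- replicate 1, at adjusted p values of 0.01 to 0.11 over the 4 cases.

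Genes lower in Q-GL- cells changed less. Igfbp5 (chr1:72857932-72874884, minus strand), a secreted protein that binds insulin-like growth factors, was at 17.7 and 18.7 FPKM in the Q-GL- libraries and 35.4 and 35.1 FPKM in the Q+GL+ libraries, a log2 difference of −0.91 ± 0.08 (SE) at an adjusted p of 7.8e-05. The 4 values did not overlap between groups, as for every gene called, and the log2 fold change was −0.95 to −0.88 with each library left out. Spaca9, a sperm acrosome-associated protein, was at 1.98 and 2.17 FPKM against 4.57 and 4.49 FPKM, a log2 difference of −0.85 ± 0.15 (SE) at an adjusted p of 0.017. Castor2, a homologue of the arginine sensor of mTOR signalling, was at 2.16 and 2.11 FPKM against 3.96 and 3.75 FPKM with a log2 difference of −0.63 (adjusted p = 0.012), and Kantr, a long noncoding RNA, at −0.71 (adjusted p = 0.029).

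Casp9, the initiator caspase of the mitochondrial death pathway, was at 3.56 and 4.21 FPKM against 6.25 and 6.301 FPKM with a log2 difference of −0.58 (adjusted p = 0.028). H2bc21, a polyadenylated histone H2B gene, was at 3.88 and 3.83 FPKM against 5.98 and 6.42 FPKM with a log2 difference of −0.57 (adjusted p = 0.025). Cbarp, a regulator of voltage-gated calcium channels, was at 2.55 and 2.28 FPKM against 3.69 and 4.39 FPKM with a log2 difference of −0.56 (adjusted p = 0.045). For each of these genes both Q-GL- libraries lay below both Q+GL+ libraries, as the rule that named them required. The remaining named genes were Mark2, a kinase of microtubule-associated proteins, at a log2 difference of −0.50 (adjusted p = 0.034), Vash1, a tubulin carboxypeptidase, at −0.50 (adjusted p = 0.032), Fam117a at −0.50 (adjusted p = 0.0081), Dusp18, a dual-specificity phosphatase, at −0.48 (adjusted p = 0.03), and Fam81a at −0.48 (adjusted p = 0.04). Cotl1, an actin-binding protein, was, apart from the predicted gene described next, the only lower gene to reach 50 FPKM, at 58.4 and 57.2 FPKM against 74.6 and 74.1 FPKM, a log2 difference of −0.36 ± 0.08 (SE) at an adjusted p of 0.046. Of the genes named so far as lower, Igfbp5 alone kept its call with each library left out. Fam117a kept it only without Q+GL+ replicate 2, and the others, Spaca9, Castor2, Kantr, Usp18, Oas2, Casp9, H2bc21, Cbarp, Edem1, Mark2, Vash1, Dusp18, Fam81a and Cotl1, lost it in all 4 cases, with adjusted p values of 0.061 to 0.33.

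The predicted gene Gm23136, named here after its values were seen because it was the only lower gene past 1 on the log2 scale, spans 99 bases of chromosome 9. It was listed at 0 in both Q-GL- libraries and at 90.5 and 74.03 FPKM in the Q+GL+ libraries, so no fold change is given. Gm23136 passed the filter only through the Q+GL+ libraries. The Q-GL+ libraries were at 161 and 68.1 FPKM and all Pax3 and Pax7-465 libraries were listed at 0. A listed 0 need not mean an absent transcript, since 733 genes were at 0 in all 10 libraries of the fit and above 0 in both NoTag libraries, the immediate early gene Junb among them.

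**Figure D4:**
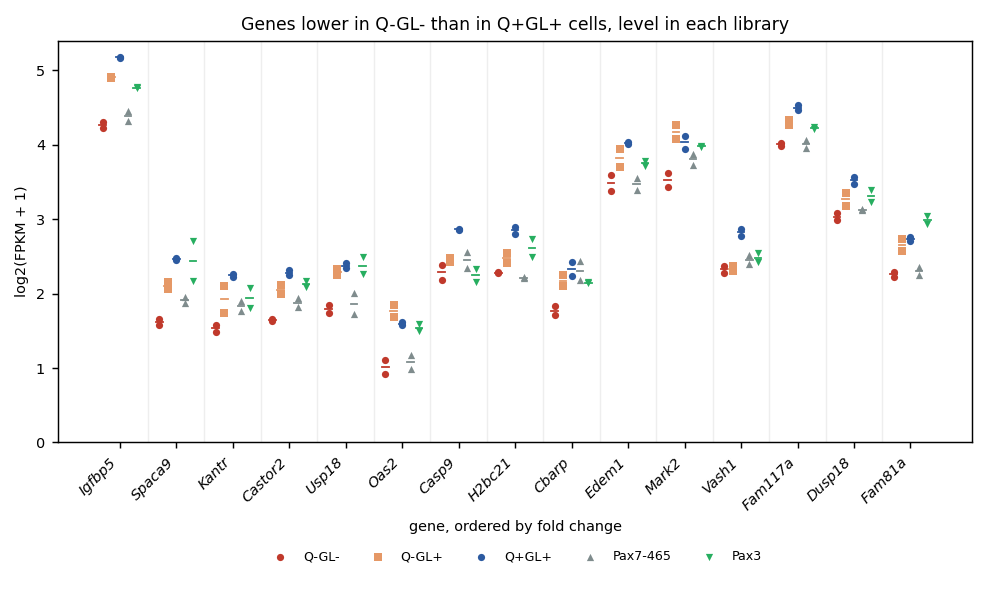
Level of each of the 15 named genes with the largest lower change, as log2(FPKM + 1) on the vertical axis, in single libraries of Q-GL-, Q-GL+, Q+GL+, Pax7-465 and Pax3 cells (points, 2 per group) with the group mean as a short line. By the rule that named them, the Q-GL- points lie below the Q+GL+ points for all 15 genes. The difference is −0.91 on the log2 scale for Igfbp5 and −0.48 for Fam81a.

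Most interferon-response and sterol genes had log2 fold changes below 0, and few passed the test. Of all 12047 genes tested, 5302 lay below 0 and 0.282% were called lower. Of 25 tested genes of the type I interferon response 2 fell and none rose, 20 had a log2 fold change below 0, and the median was −0.17. Oas2, an interferon-induced oligoadenylate synthetase, was at 0.897 and 1.15 FPKM against 1.98 and 2.06 FPKM with a log2 difference of −0.58 (adjusted p = 0.047). Usp18, the protease that removes the ubiquitin-like Isg15, was at 2.33 and 2.58 FPKM against 4.33 and 4.06 FPKM with a log2 difference of −0.59 (adjusted p = 0.041). Isg15 itself was at 8.08 and 7.02 FPKM against 8.23 and 8.49 FPKM and a log2 difference of −0.13 (adjusted p = 0.62). Oas2 and Usp18 were thus below 5 FPKM in all 4 libraries. Of 32 genes of cholesterol and fatty acid synthesis 1 fell, Idi1, an isomerase of isoprenoid synthesis, at 22.04 and 20.8 FPKM against 29.3 and 30.5 FPKM with a log2 difference of −0.46 (adjusted p = 0.03), while 28 had a log2 fold change below 0 and the median was −0.10. Hmgcs1, which makes HMG-CoA for this pathway, did not pass at a log2 difference of −0.29 (adjusted p = 0.14). The calls of Oas2, Usp18 and Idi1 were lost with any library left out, at adjusted p values of 0.12 to 0.33.

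Further gene groups gave few or no calls. In the limma fit none passed among 52 genes of the respiratory chain and ATP synthase, 42 of the cell cycle, 45 of chromatin remodelling and Pax7 partners, 24 of the Notch pathway, 18 of antigen presentation, 17 immediate early genes and 11 receptors of pituitary ligands. At an unadjusted p of 0.05 these lists held 2, 2, 0, 7, 2, 6 and 5 genes in the same order, and their medians lay between −0.03 and 0.12. The largest log2 fold change in either direction was 0.27 for the list of chromatin remodelling, which does not hold the called BAF subunit Ss18, 0.29 for the cell cycle and 0.29 for the respiratory chain. Of 30 genes of glycolysis and glycogen Pygm alone was called, beside 1.86% of all genes tested, and the median was 0.07.

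Since Q-GL- and Q+GL+ differ by both inserts, the values of the Q-GL+ libraries were set between them. In the same fit 395 genes (3.28%) were called between Q-GL- and Q-GL+, which differ by GL, with 2.43% of the genes tested higher and 0.847% lower in Q-GL-. Between Q-GL+ and Q+GL+, which differ by Q, 79 (0.656%) were called, 0.415% higher and 0.241% lower in Q-GL+. These comparisons share libraries with each other and with the main one, so for each gene the steps add up to the main difference and are given only side by side. Rgs4 was at 1.81 and 1.71 FPKM in the Q-GL+ libraries, and its log2 difference was 2.94 over the GL step (adjusted p = 1.1e-07) and −0.16 over the Q step (adjusted p = 0.59, 95% interval −0.40 to 0.07). For Rgs4, Klk14, Pygm, Apobec2, Kif21b and Il1b the Q-GL+ libraries lay at or near the Q+GL+ level. Klk14 differed by 2.42 over the GL step and 0.19 over the Q step, Pygm by 1.80 and 0.02, and Apobec2 by 1.96 and −0.21.

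Iapp and Oacyl took intermediate levels with Q-GL+ and passed the test over each step. Iapp was at 12.8 and 11.4 FPKM, with differences of 1.31 over the GL step (adjusted p = 1.4e-05) and 0.71 over the Q step (adjusted p = 0.0035). Oacyl was at 4.34 and 4.11 FPKM, with 1.18 (adjusted p = 1.0e-04) and 0.61 (adjusted p = 0.023). Pcsk2 was at 16.2 and 15.4 FPKM, and its difference of 1.14 over the GL step passed (adjusted p = 2.3e-05), while 0.36 over the Q step did not (adjusted p = 0.079, 95% interval 0.19 to 0.54). Both Q-GL+ libraries lay above both Q+GL+ libraries for Pcsk2. The share of all genes without overlap was counted only between Q-GL- and Q+GL+, where it was 48.9%. Mybpc1, Timp2 and Sat1 passed over the GL step at 1.37, 0.90 and 0.72, and were at 0.28, 0.18 and 0.23 over the Q step, where they did not pass.

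Some genes ran otherwise. Megf11 was at 93.4 and 90.7 FPKM in the Q-GL+ libraries, near the Q-GL- level, and its difference was −0.10 over the GL step (adjusted p = 0.65) and 0.62 over the Q step (adjusted p = 0.013). Eln, at 16.4 and 16.1 FPKM, was at −0.19 over the GL step and passed over the Q step at 0.69 (adjusted p = 0.007). Hmcn2, at 8.09 and 9.94 FPKM, was highest in the Q-GL+ libraries, with 1.20 over the Q step (adjusted p = 0.0015). For these 3 genes the mean was higher with Q-GL+ than with either of the compared isoforms. Serpine2 was lowest there, at 14.1 and 14.9 FPKM, and passed in opposite directions, at 1.51 over the GL step (adjusted p = 4.0e-06) and −0.75 over the Q step (adjusted p = 0.0027). For Chgb the Q-GL+ libraries were also lowest, at 382 and 352 FPKM, with 0.98 (adjusted p = 3.6e-04) and −0.51 (adjusted p = 0.053). For these genes the difference between the shortest and the longest isoform was smaller than 1 of its steps.

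Among lower genes, Igfbp5 was at 28.9 and 28.99 FPKM in the Q-GL+ libraries, with −0.64 over the GL step (adjusted p = 9.5e-04) and −0.27 over the Q step (adjusted p = 0.15). Oas2 and Mark2 passed over the GL step at −0.76 and −0.64 and were at 0.18 and 0.14 over the Q step. Vash1 was at −0.01 over the GL step and −0.49 over the Q step, neither past the test, with adjusted p values of 0.97 and 0.064.

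**Figure D5:**
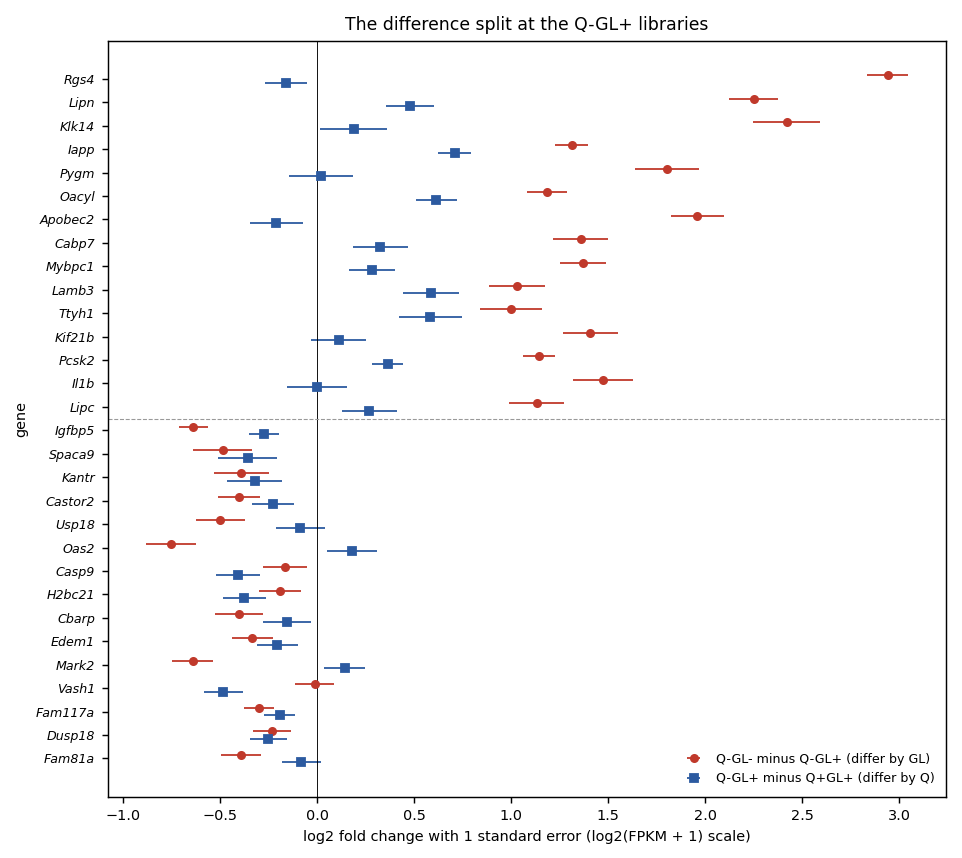
Log2 fold change with 1 standard error (horizontal axis, log2(FPKM + 1) scale) of the 15 named genes with the largest higher change, above the dashed line, and the 15 with the largest lower change, below it. Red circles are Q-GL- minus Q-GL+, which differ by GL, and blue squares are Q-GL+ minus Q+GL+, which differ by Q, and for Rgs4 the red point is at 2.94 and the blue at −0.16, while for Vash1 they are at −0.01 and −0.49.

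The libraries of the other introduced factors give the levels some context, as a description without a test. The authors describe Pax3 as Q+GL- and the Pax7 deletions as Q+GL- mutants, so both hold Q and lack GL. In Pax7-465 libraries Pcsk2 was at a mean of 21.4 FPKM, Iapp at 23.1 and 23.6 FPKM, Timp2 at 58.8 and 63.8 FPKM and Mybpc1 at 7.66 and 9.02 FPKM, above the Q+GL+ levels and either below or near those with Q-GL-. Rgs4, at 5.68 and 5.37 FPKM, and Pygm, at 1.83 and 1.42 FPKM, lay nearer to the Q+GL+ level there. In Pax3 libraries Rgs4 was at 1.69 and 2.15 FPKM, Timp2 at 25.9 and 27.2 FPKM and Oacyl at 1.69 and 2.08 FPKM, near or below the Q+GL+ values, while Pcsk2 was at 17.2 and 18.9 FPKM and Iapp at 9.93 and 9.61 FPKM, above them.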

How the data were processed

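RNA-Seq values of 12 libraries, 2 for each of 6 groups, were read from 1 table, and 4 further value columns were set aside. The authors deposited FPKM per gene, made from ribosome-depleted, strand-specific paired-end reads with Trimmomatic, TopHat2 (Ensembl GRCm38, release 77) and HOMER. The table holds no counts, so the authors' count test with edgeR was not repeated, depth is unknown, and no counting interval is given.

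Genes that reached 1 FPKM in 2 or more of the 4 compared libraries were taken as log2(FPKM + 1). One limma-trend fit with the robust option (R 4.3.3, limma 3.58.1, statmod 1.5.0) held 10 libraries in 5 groups, with 5 residual degrees of freedom. Calls have a Benjamini-Hochberg adjusted p under 0.05 over all 12047 genes, and adjusted p values in the text come from limma. The script that fits and calls genes was tested on simulated data. Named were the 15 largest changes per direction (predicted genes left out) and up to 4 members per list. Also named were up to 10 genes per direction at 50 FPKM or more, and Pax7, Tbx19, Pomc and Pcsk2. The 15 largest changes and the genes at 50 FPKM or more came from called genes whose groups did not overlap. For 1 gene that these rules name, the result is not reported here. The members, the 28 gene lists and these rules were chosen with earlier results of these data known. Alternatives covered scaling, filters, pseudocount, libraries fitted, limma's options, a replicate block, a threshold on fold change and each library left out. Tables were handled in Python 3.11.15 (pandas 2.3.3, numpy 2.4.6) and plots drawn with matplotlib 3.10.9.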

Additional observations from a re-analysis of the deposited data

How the results depend on the processing

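No gene called in the main fit changed direction under any of 17 alternative fits, and 35 of the 224, 34 higher and 1 lower, passed in all of them. The compared groups did not overlap for any of the 224 genes. Only quantile normalization and median centring could therefore have reversed a direction. The 224 calls became 396 under quantile normalization, with 121 lower in place of 34, and 284 under median centring, with 71 lower. With each library left out in turn, the lone library of a group being assumed to vary like the other groups, the count was 59 to 115, with 55 to 107 higher and 3 to 8 lower. Requiring a log2 fold change of at least 1 left 31 genes, 30 higher and 1 lower. The cause of these shifts was not tested. Other filters, a pseudocount of 0.1, limma's options and the choice of libraries gave 180 to 281 calls. For the 123 genes named by the rule, 1836 of 2066 values under alternatives were counted as unchanged, 188 fell short of the threshold and 42 newly passed it. A gene not called in the main fit was counted as unchanged even where its direction changed, as for Aldoc and Arid1b.

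Deviations of same-numbered Q-GL- and Q+GL+ libraries correlated at −0.15 across genes, and over the 10 pairs of groups at −0.15 to 0.18. With 2 libraries per group, each gene gives a single deviation per group, so these values cannot exclude a shared batch. A replicate block gave 222 calls with the 10 libraries, and 146 (128 higher, 18 lower) with only the 4 compared. The crossed pairing, chosen after seeing the data, gave 72 calls, 63 higher and 9 lower. Without counts, neither depth nor counting error can be given for low genes.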

Other observations

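Beyond the gene lists, the calls held further secreted factors, chosen here after their values were seen and so given without weight as a group. Agt, which encodes angiotensinogen, was at 45.2 and 43.3 FPKM in the Q-GL- libraries and 16.7 and 18.03 FPKM in the Q+GL+ libraries, a limma log2 difference of 1.30 ± 0.08 (SE) at an adjusted p of 9.0e-06. Gas6, a ligand of the TAM receptor tyrosine kinases, was at 6.396 and 6.62 FPKM against 2.53 and 2.88 FPKM with a log2 difference of 1.02 (adjusted p = 0.0015). Tgfb3, a transforming growth factor beta, was at 6.03 and 7.12 FPKM against 3.08 and 3.25 FPKM with a log2 difference of 0.86 (adjusted p = 0.0025). All of these were low to moderate in level and higher in Q-GL- cells. Stc1, the glycoprotein stanniocalcin, had a log2 difference of 0.70 (adjusted p = 9.9e-04), Nptx2, a neuronal pentraxin, 0.72 (adjusted p = 0.003), Enpp2, which makes lysophosphatidic acid as autotaxin, 0.72 (adjusted p = 0.003), and Bmp7 0.64 (adjusted p = 0.027). Fgf21, a metabolic hormone, was far more abundant, at 359 and 359.9 FPKM in the Q-GL- libraries and 252 and 267 FPKM in the Q+GL+ libraries, and its call, at a log2 difference of 0.47 (adjusted p = 0.045), was lost with any of the 4 libraries left out, as was that of Bmp7.

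A few lysosomal genes, also chosen after their values were seen, were higher in Q-GL- cells, and they carry no weight as a group. Lysosomal genes were not counted as a list here. The lysosomal proteases Ctsb and Ctsl, at log2 differences of 0.38 and 0.43, were not called. Galns, a sulfatase that degrades keratan sulfate, was at 16.6 and 17.6 FPKM in the Q-GL- libraries and 6.54 and 7.38 FPKM in the Q+GL+ libraries, a limma log2 difference of 1.19 ± 0.12 (SE) at an adjusted p of 3.1e-04. Lgmn, the asparaginyl protease legumain, was at 40.4 and 40.6 FPKM against 25.9 and 24.9 FPKM with a log2 difference of 0.65 (adjusted p = 0.005), and Ctsf, cathepsin F, at 34.1 and 33.1 FPKM against 21.2 and 23.99 FPKM with 0.56 (adjusted p = 0.034). Tfeb, a transcription factor of lysosomal genes, was at 9.73 and 9.27 FPKM against 6.398 and 6.04 FPKM with a log2 difference of 0.54 (adjusted p = 0.011). Its Q-GL+ libraries were at 9.29 and 9.07 FPKM, near the Q-GL- level, whereas those of Galns, at a mean of 7.25 FPKM, were near the Q+GL+ level. The calls of Ctsf and Tfeb were lost with any 1 of the 4 libraries left out, that of Lgmn without either Q-GL- library, and that of Galns held in all 4 cases.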
